A study of Apostichopus japonicus with 3 samples.

Results

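Arousal from aestivation was compared with deep aestivation in the respiratory tree of the sea cucumber Apostichopus japonicus, by RNA-seq of mRNA enriched on oligo(dT) beads. The comparison used 2 of the 3 libraries of the study: 1 library of arousal (0.963 M uniquely mapped reads) and 1 of deep aestivation (0.887 M reads). The other library, of non-aestivation (0.941 M reads), is given beside them as a further level and enters no fold change. Each stage drew on at least 15 individuals; how their RNA was combined, their age, their strain and any treatment are not given in the sources used here. With 1 library a stage there is no replicate spread and no test, so every interval below covers counting error only. The unit of counting was the isotig, 1 transcript of an assembly made beforehand, and 20991 isotigs had a read in any library. The 10896 isotigs with 20 or more reads over the 3 libraries were compared, and 5686 of them had a protein match, often in another animal, from which the names below come.

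The respiratory tree is a pair of branched, muscular sacs that open into the cloaca, through which sea cucumbers pump sea water for gas exchange and which also takes part in ion exchange and immune defence. Aestivation is the summer dormancy in which these animals stop feeding, their gut shrinks and their metabolic rate falls. Deep aestivation is its settled phase, and arousal is the return from it toward feeding and activity.

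The whole tissue was sequenced, so fewer cells of a type and less RNA per cell cannot be told apart in any value below. Every list of markers for cell types that the organ can hold had reads in both libraries. Members were matched by words in their names, so these reads do not show that a cell type was present. The 15 markers of ciliated epithelium summed to 202 RPM (reads scaled to the library total) at arousal, against 292 at deep aestivation (394 in non-aestivation), with 2 of 15 lower and 2 of 15 above 0 on the log2 scale. The 25 muscle markers summed to 3636 RPM at arousal, against 4608 at deep aestivation (3906 in non-aestivation), and the 18 coelomocyte markers to 2952 against 3279 (4360 in non-aestivation). The coelomocyte markers were set to include complement component C3, an abundant transcript given below. Their median log2 difference was -0.07, with 1 higher and none lower, so this sum does not show a fall across them. Germ cell markers, 19 in all, summed to 699 RPM at arousal, against 879 at deep aestivation (1255 in non-aestivation). Among them bindin precursor, the sperm adhesion protein, had 0 reads in both (61 in non-aestivation), and synaptonemal complex protein 1, a protein of meiotic chromosomes, had 1 read at arousal and 0 at deep aestivation (23 in non-aestivation). The 7 nerve markers summed to 631 RPM at arousal, against 470.0 at deep aestivation (514 in non-aestivation). Of these, 1 was higher by 2-fold or more, none was lower, and the median log2 difference was 0.18. Among the 5 nerve markers with 30% or more of their length covered by reads, none was past 2-fold and the median was 0.097. The sum therefore does not show a rise across the nerve markers. The part that cell makeup has in the differences below was not tested.

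A difference of 1 or more in log2(RPKM + 0.5), which is 2-fold, set the isotigs called higher or lower. RPKM is the number of reads scaled to isotig length and to library total, and the added 0.5 understates the change of rare transcripts. At arousal 878 isotigs were higher than at deep aestivation (8.06% of those compared) and 973 were lower (8.93%), while 9045 lay within 2-fold. For 530 higher isotigs (4.86%) and 602 lower ones (5.52%) the exact 95% interval of the ratio of read rates also left out 1, together 10.4% of those compared. The median difference over all 10896 isotigs was -0.0014 and the middle 50% ran from -0.44 to 0.43, so a list of genes is read against a background centred on 0. Calls were most frequent among rare transcripts: 28.9% of the isotigs in the lowest 20% by mean RPKM were called in either direction, and 7.57% of those in the highest 20%. Changes of 4-fold or more were counted for 144 higher and 180 lower isotigs, and of 16-fold or more for 15 higher and 34 lower ones.

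**Figure D1:**
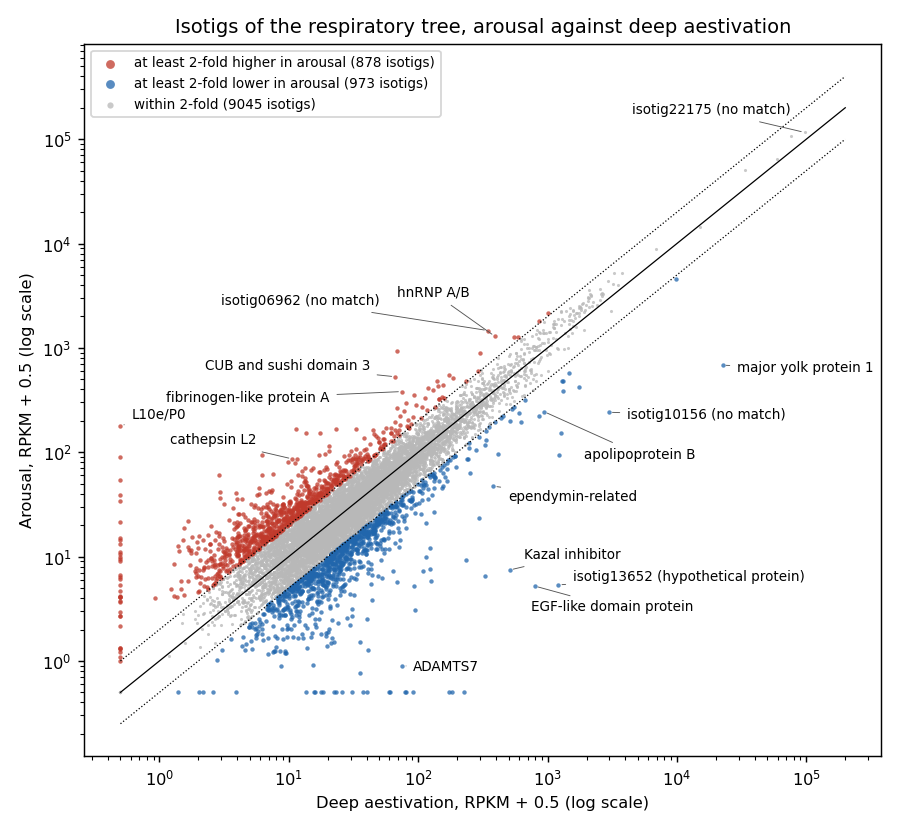
RPKM + 0.5 of each of 10896 isotigs at arousal (vertical, log scale) against deep aestivation (horizontal, log scale), 1 point an isotig, with the line of equality and 2-fold lines. The 878 higher isotigs lie above the upper 2-fold line and the 973 lower ones below the other, where major yolk protein 1 stands apart as the most abundant transcript that changed.

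Named transcripts with the largest falls included those of proteins made for export: yolk protein, a lipoprotein, protease inhibitors and matrix proteins. Yolk and iron carriers came first in size. Of 6 such isotigs 3 were lower and none was higher, with a median difference of -0.76. Together they had 2316 RPM at arousal, against 69582 at deep aestivation (72988 in non-aestivation), which is 30.05-fold lower (28.8 to 31.4). Major yolk protein 1, a transferrin-like glycoprotein that echinoderms store in their gonads and carry in the body fluid, made up nearly all of that: 1995 reads at arousal and 60653 at deep aestivation, with 67076 in non-aestivation. The list therefore says little about the rest. Major yolk protein 2 (isotig03531) had 37 reads at arousal, against 913 at deep aestivation (1348 in non-aestivation), but in all libraries these reads covered only 1.75% of its 4407 bases. Melanotransferrin, a membrane-bound iron carrier, had 23 reads at arousal, against 45 at deep aestivation (112 in non-aestivation), and was 2.12-fold lower (1.26 to 3.68). Of the other members, 2 hephaestin isotigs, named for a copper-dependent iron oxidase, had 31 and 122 reads at arousal, against 20 and 71 at deep aestivation, both within 2-fold. The last member, named for a vitellogenin yolk protein (isotig17734), had 22 reads at arousal, against 28 at deep aestivation (82 in non-aestivation), also within 2-fold.

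Lipid carriers showed the same split between a single abundant member and the rest. Their sum was 2763 RPM at arousal, against 7292 at deep aestivation (4591 in non-aestivation), or 2.64-fold lower (2.52 to 2.76), but the median over 22 isotigs was -0.15, with 3 lower and 1 higher. Apolipoprotein B, the structural protein of large lipoproteins, had 1488 reads at arousal, against 5258 at deep aestivation, and 3006 in non-aestivation. Microsomal triglyceride transfer protein, which loads lipid onto apolipoprotein B, had 14 reads at arousal, against 38 at deep aestivation (19 in non-aestivation), and fell 2.95-fold (1.56 to 5.89). Apolipophorin precursor protein, the lipid carrier of invertebrate blood, had 63 reads at arousal, against 121 at deep aestivation (97 in non-aestivation), and was 2.085-fold lower (1.525 to 2.87). A second isotig of the transfer protein (isotig23815) had 6 reads in both, so the carrier was lower and its loading enzyme was lower in 1 of 2 isotigs. The receptor side was not: low-density lipoprotein receptor precursor had 148 reads at arousal and 112 at deep aestivation, vitellogenin receptor (isotig28838) had 77 against 61, and Niemann-Pick C disease protein, a lysosomal cholesterol exporter, was the 1 higher member at 17 reads against 7 (2.24-fold, 0.88 to 6.38).

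Secreted and membrane peptidases, most of them metalloproteases, cut matrix proteins and hormones outside the cell. The list, drawn as secreted metalloproteases, also holds 3 serine carboxypeptidases whose names matched. In it 6 of 25 isotigs were lower, 2 were higher and 5 lay above 0, with a median of -0.29. Beside the metalloprotease with thrombospondin motifs (ADAMTS7) and angiotensin-converting enzyme, both at 1 read at arousal, against 174 and 126 at deep aestivation, 4 rarer members were lower. Matrix metalloproteinase 14, which sits in the cell membrane, had 1 read at arousal, against 14 at deep aestivation (15 in non-aestivation), a ratio of 15.2-fold lower (2.31 to 643). A second angiotensin-converting enzyme isotig (isotig25710) had 3 reads at arousal, against 10 at deep aestivation, ADAM precursor 11 against 23, and adam 5 against 12. The abundant members moved little: disintegrin and metalloproteinase 10 had 320 reads at arousal and 349 at deep aestivation, and matrix metalloproteinase 16 had 221 and 248. The 2 higher members were Blastula protease-10, an echinoderm astacin-type protease (25 reads against 11), and vitellogenic-like carboxypeptidase, a serine carboxypeptidase (18 reads against 6). For isotig25710, adam and Blastula protease-10 the interval includes 1, and 5 calls of the list had an interval that left it out. Pregnancy-associated plasma protein-A, a metalloprotease given below, is not in the list, since its name did not match.

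Their inhibitors moved in both directions. Of 14 protease inhibitors 4 were lower and 2 were higher, with a median of -0.21 and a sum 1.69-fold lower (1.54 to 1.86). Over all isotigs 8.93% were lower and 8.06% higher. Both Kazal-type inhibitors, which block serine proteases, were lower: the abundant isotig had 6 reads at arousal, against 406 at deep aestivation (1240 in non-aestivation), and the second (isotig13024) had 2 against 24 (141 in non-aestivation). Tissue inhibitor of metalloproteinase (TIMP, isotig15867) had 25 reads at arousal, against 62 at deep aestivation (19 in non-aestivation), and was 2.69-fold lower (1.67 to 4.47). TIMP-2 precursor (isotig19521) had 9 reads at arousal, against 17 at deep aestivation, and 1 in non-aestivation. The most abundant TIMP isotig (isotig13605) had 168 reads at arousal and 138 at deep aestivation, within 2-fold. The inhibitors of cysteine proteases went the other way. Cystatin-like peptide had 40 reads at arousal, against 11 at deep aestivation (21 in non-aestivation), and was 3.35-fold higher (1.69 to 7.24). Leukocyte cysteine proteinase inhibitor 1 had 31 reads at arousal, against 8 at deep aestivation (19 in non-aestivation), and was 3.57-fold higher (1.61 to 8.99).

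Basement membrane and matrix glycoproteins, which tie epithelia to the tissue below, were lower as a list and collagens were not. Of 31 glycoprotein isotigs 7 were lower and none was higher, 8 lay above 0, and the median was -0.49. Their sum was 1484 RPM at arousal, against 2375 at deep aestivation (3374 in non-aestivation), or 1.601-fold lower (1.496 to 1.71). Among 22 collagen isotigs 1 was lower and none was higher, with a median of -0.01. The 3 isotigs named hemicentin-1, a giant immunoglobulin-repeat protein of epithelial junctions, were all lower: together they had 26 reads at arousal, against 147 at deep aestivation, and 802 in non-aestivation, a 6.14-fold difference (4.03 to 9.71). FRAS1, a protein of epithelial basement membrane, fell in both of its isotigs, with 3 reads against 100 in the first and 8 against 19 in the second. SPARC-related modular calcium-binding protein 1 had 27 reads at arousal, against 61 at deep aestivation (97 in non-aestivation), and fell 2.45-fold (1.54 to 4.01). Laminin gamma 1, a basement membrane scaffold, had 99 reads at arousal and 108 at deep aestivation. Fibropellin Ia, an epidermal growth factor-repeat protein known from the sea urchin embryo's outer layer, had 594 reads over 5 isotigs at arousal, against 937 at deep aestivation, 1.71-fold lower in sum (1.54 to 1.90) with no isotig past 2-fold.

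In vertebrates cubilin takes up the intrinsic factor and vitamin B12 complex and many filtered proteins. All 5 cubilin isotigs were lower, and 4 of them share a name, with 89 reads in sum at arousal, against 268 at deep aestivation (468 in non-aestivation), or 3.27-fold lower (2.56 to 4.20). The most abundant of them (isotig25069) had 52 reads at arousal, against 127 at deep aestivation, and the longest (isotig13982) had 28 against 109. The remaining one (isotig23946) had 5 reads at arousal, against 11 at deep aestivation. Transcobalamin I, a vitamin B12 carrier, had 71 reads over 3 isotigs at arousal, against 115 at deep aestivation (74 in non-aestivation), and was 1.76-fold lower in sum (1.30 to 2.40), with 1 of 3 isotigs (isotig14913) past 2-fold, which falls just short of it with a pseudocount of 1. Alpha macroglobulin, a protease trap of body fluids, had 57 reads at arousal, against 112 at deep aestivation (353 in non-aestivation), which is 2.13-fold lower (1.54 to 2.99). The more abundant isotigs named alpha-2-macroglobulin were within 2-fold, with 140 reads against 149 (isotig15279) and 143 against 178 (isotig15571).

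**Figure D2:**
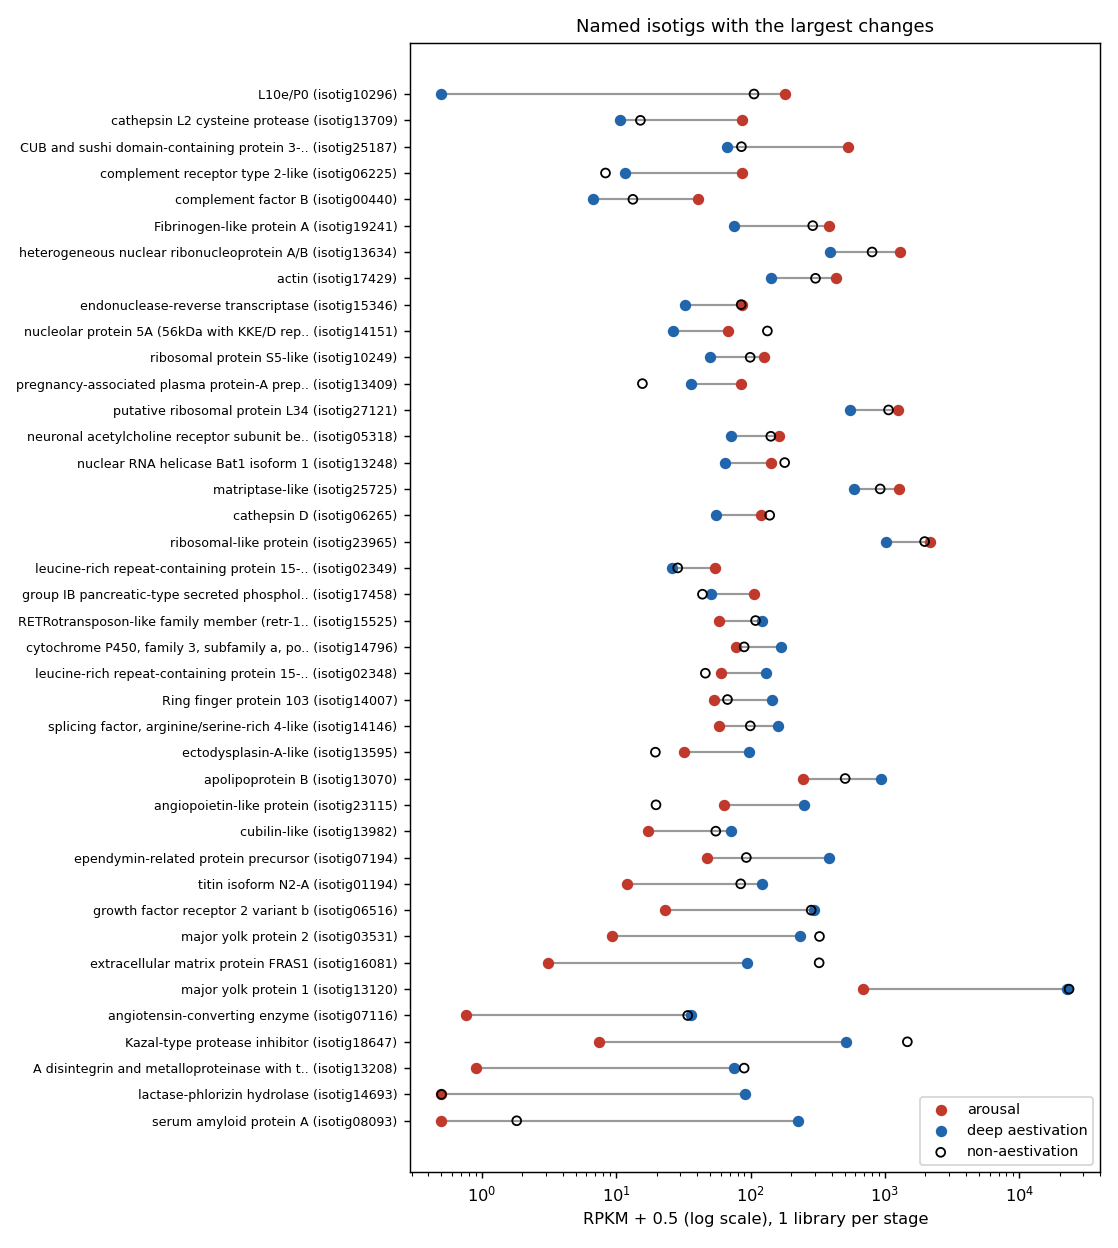
RPKM + 0.5 (horizontal, log scale) of 20 higher and 20 lower isotigs, those that changed most among the isotigs with 100 or more reads in 1 of the libraries and an informative name, at arousal (red), deep aestivation (blue) and non-aestivation (open circles), 1 library a stage. The span between red and blue is widest in the lower group, where serum amyloid protein A (isotig08093) and lactase-phlorizin hydrolase stand at 0 RPKM at arousal.

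Several secreted or membrane proteins with no list of their own changed strongly, at depths where counting error is small. Growth factor receptor 2 variant b (isotig06516), matched to a sea urchin receptor kinase, had 36 reads at arousal, against 430 at deep aestivation, and 436 in non-aestivation, a 13.0-fold difference (9.22 to 18.8). Ependymin-related protein precursor (isotig07194), a secreted glycoprotein of a family first known from fish brain, had 103 reads at arousal, against 773 at deep aestivation, and 199 in non-aestivation, and was 8.15-fold lower (6.63 to 10.1). Ectodysplasin-A-like (isotig13595), a ligand of the tumour necrosis factor family, had 59 reads at arousal, against 167 at deep aestivation, and 35 in non-aestivation, and was 3.07-fold lower (2.27 to 4.21). These genes differ in where non-aestivation lies. The receptor was as high there as in deep aestivation, whereas the ligand was lower there than at either other stage.

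Some of the lower isotigs were also low in non-aestivation, and 4 of them, chosen after their values were seen, are given here. Serum amyloid protein A, which in vertebrates rises in the acute phase and binds lipoproteins, had 31 reads over 2 isotigs at arousal, against 200 at deep aestivation, and 2 in non-aestivation, a 7.003-fold difference (4.78 to 10.6). Its 2 isotigs differed: isotig08093 had 0 reads at arousal, against 162 at deep aestivation, and was at least 58.6-fold lower when arousal was set to the floor of 3 reads, while isotig08092 had 31 reads at arousal and 38 at deep aestivation. The reads on isotig08093 covered 17.82% of it. Lactase-phlorizin hydrolase (isotig14693), a brush border glycosidase, had 0 reads at arousal, against 119 at deep aestivation, and 0 in non-aestivation, at least 43.1-fold lower by the same floor, with reads over 86.9% of its length at deep aestivation. The other isotig of that name (isotig08881) had 290 reads at arousal, against 540 at deep aestivation, and 32 in non-aestivation, 2.02-fold lower (1.75 to 2.34). Angiopoietin-like protein (isotig23115), a secreted protein with a fibrinogen domain, had 37 reads at arousal, against 134 at deep aestivation, and 11 in non-aestivation, and was 3.93-fold lower (2.71 to 5.82). F-box only protein 32, the ubiquitin ligase subunit known as atrogin-1 in wasting vertebrate muscle, had 21 reads at arousal, against 41 at deep aestivation, and 3 in non-aestivation, and was 2.12-fold lower (1.22 to 3.78).

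Lists of enzymes for oxidation, methyl transfer and storage had medians below 0. Over all isotigs 8.93% were lower and 8.06% higher. The cytochrome P450 list had a larger share of lower members than that. The other lists here were too small for a share to say much. Of 20 cytochrome P450 isotigs, enzymes that oxidise sterols and foreign compounds, 5 were lower and 1 was higher, with a median of -0.54 and a sum 1.35-fold lower (1.21 to 1.5003). The family 3 member that was most abundant had 109 reads at arousal, against 217 at deep aestivation (122 in non-aestivation). Cytochrome P450 4C1 had 6 reads at arousal, against 20 at deep aestivation, and 74 in non-aestivation. Steroidogenic P450 17-hydroxylase/lyase was split, with isotig08677 lower (6 reads against 19) and isotig11104 higher (27 reads against 12). Its other isotigs, isotig10860 and isotig10859, had 54 and 11 reads at arousal, against 27 and 11, within 2-fold. All 4 summed to 98 reads at arousal and 69 at deep aestivation, 1.31-fold higher (0.95 to 1.81). Of 8 isotigs of the methionine cycle 1 was lower and 2 lay above 0, with a median of -0.44 and a sum 1.59-fold lower (1.45 to 1.74). Sarcosine dehydrogenase, which returns methyl groups to folate, was the lower one at 24 reads, against 47 at deep aestivation (15 in non-aestivation). Methionine adenosyltransferase, which makes the methyl donor S-adenosylmethionine, had 425 reads at arousal, against 706 at deep aestivation, and 304 in non-aestivation. Glycine N-methyltransferase, which consumes it, had 180 against 218, and 29 in non-aestivation. Both were within 2-fold between arousal and deep aestivation. In the serine, glycine and folate list 1 of 7 isotigs was lower, phosphoserine phosphatase at 11 reads against 21, and phosphoglycerate dehydrogenase had 13 reads at arousal and 8 at deep aestivation, both far under its 212 in non-aestivation. Of 4 isotigs of glycogen and sugar storage 2 were lower, both named glycogen synthase, with 5 and 7 reads at arousal, against 14 in each at deep aestivation.

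Proteins that fold and move secretory cargo in the endoplasmic reticulum had 4 lower members and 1 higher among 14, with a median of -0.48 and a sum 1.38-fold lower (1.29 to 1.47). Protein disulfide-isomerases A4 and A6, which form disulfide bonds in new secretory proteins, had 33 and 37 reads at arousal, against 70 and 75 at deep aestivation, 2.30-fold (1.502 to 3.60) and 2.20-fold (1.465 to 3.36) lower. A second isotig of A4 (isotig16895) had 40 reads at arousal and 52 at deep aestivation, within 2-fold. Sec61 gamma, part of the channel that admits new chains, had 75 reads at arousal, against 139 at deep aestivation, and 18 in non-aestivation. It lay on the 2-fold line, at 2.01-fold lower (1.51 to 2.70). Translocon-associated protein gamma (isotig07408) had 23 reads at arousal, against 78 at deep aestivation, but these covered 8.20% and 8.26% of the isotig, and the more abundant isotig07409 of that name had 99 reads against 116, within 2-fold. Calreticulin and gp96, the abundant chaperones of the compartment, had 460 and 454 reads at arousal, against 587 and 614 at deep aestivation, within 2-fold, and more than either stage in non-aestivation, at 1344 and 1334. The 1 higher member was signal peptidase complex subunit 3, with 84 reads against 28 (2.76-fold, 1.78 to 4.40).

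Among regulators, the counts for transcription factors stood near the background of 8.93% lower and 8.06% higher. Among 89 transcription factor isotigs 10 were lower, 5 were higher and 32 lay above 0, with a median of -0.26. Creb3L3, a membrane-bound factor that in vertebrate liver is released by stress of the endoplasmic reticulum and acts on lipid and acute phase genes, had 772 reads over 3 isotigs at arousal, against 1197 at deep aestivation, and 621 in non-aestivation, 1.68-fold lower (1.54 to 1.84) with 1 of 3 past 2-fold. Transcription factor SoxB2, a regulator of neural and epithelial fate, had 49 reads at arousal, against 94 at deep aestivation. The 2 higher factors with 30 or more reads at arousal were both of the ETS family, which acts in blood and vessel cells of vertebrates: Ets transcription factor 1 had 75 reads at arousal, against 27 at deep aestivation (69 in non-aestivation), and ErgL had 39 against 10 (23 in non-aestivation). They were 2.56-fold (1.63 to 4.13) and 3.59-fold (1.76 to 8.07) higher. The most abundant isotig of the list, v-fos transformation effector protein, is a protein of the small ribosomal subunit under an older name, and it had 2608 reads at arousal and 1681 at deep aestivation. None of the 10 isotigs of insulin, TOR and energy signalling passed 2-fold, and 2 lay above 0, with a median of -0.42. Among them protein kinase B gamma had 76 reads at arousal and 80 at deep aestivation. In the list of ubiquitin enzymes and ligases 9 of 61 were lower, a larger share than the background, and 4 were higher. Ring finger protein 103, a membrane ubiquitin ligase, had 87 reads at arousal, against 220 at deep aestivation (108 in non-aestivation), and was 2.74-fold lower (2.13 to 3.56).

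**Figure D3:**
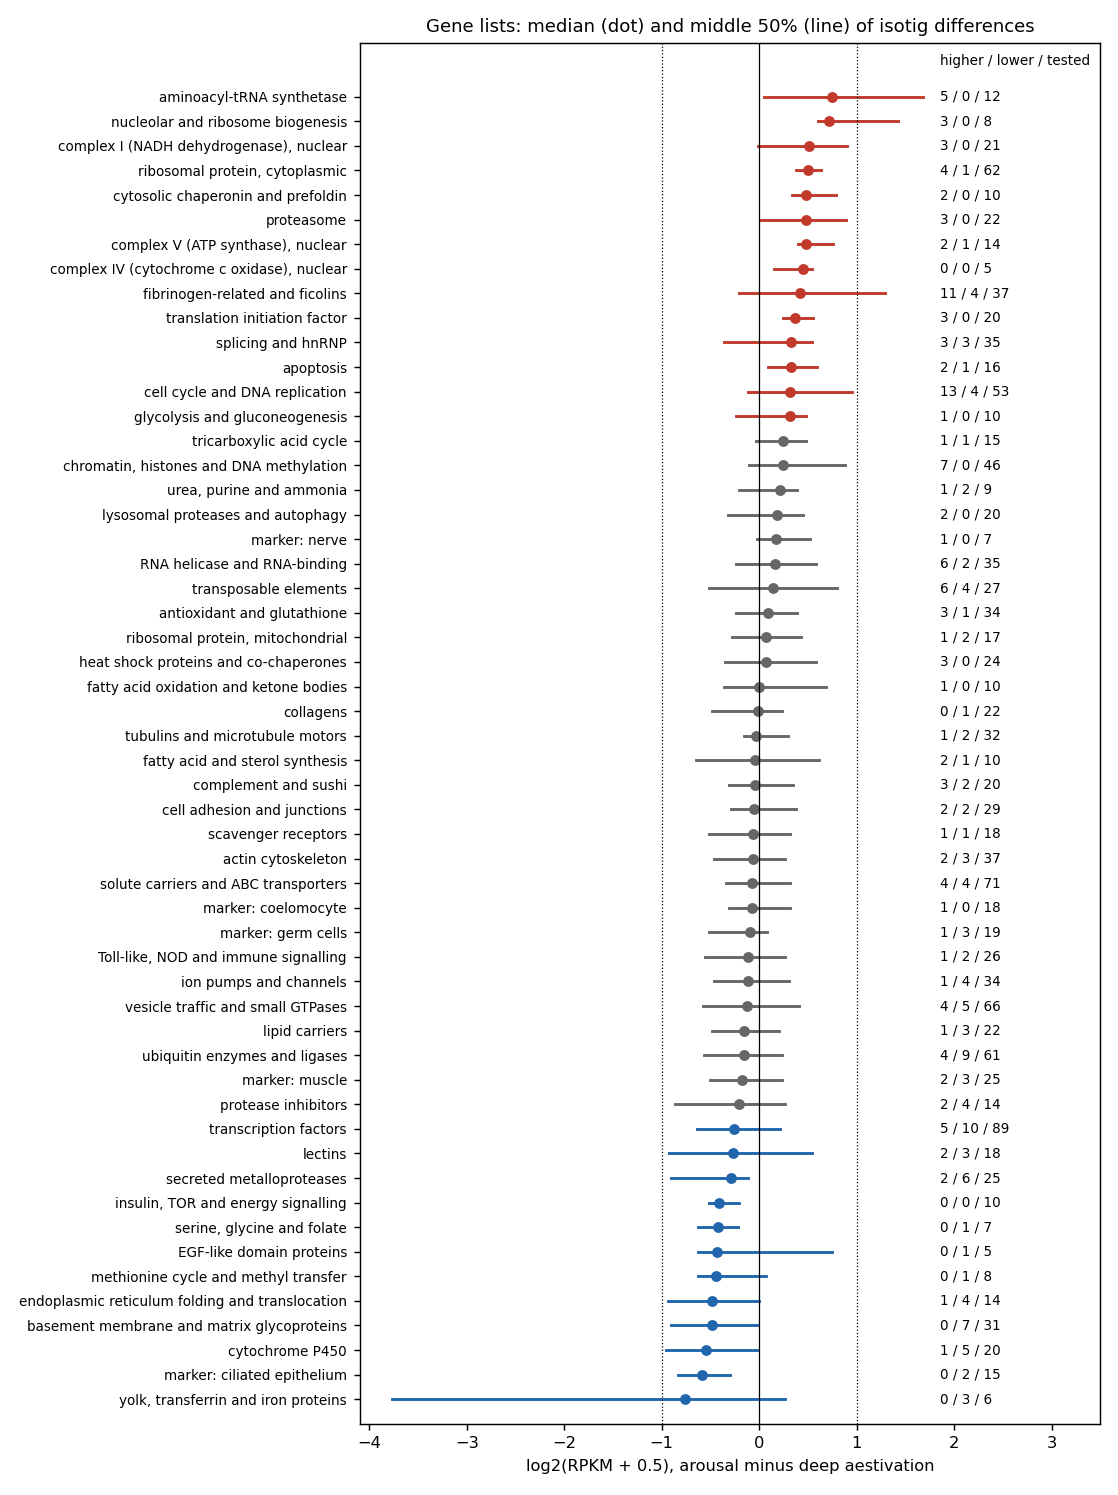
Median (dot) and middle 50% (line) of the differences in log2(RPKM + 0.5), arousal minus deep aestivation, over the isotigs of each of 54 gene lists with 5 or more members, with the number higher, lower and tested. The 14 lists in red have a median of 0.25 or more and the 12 in blue of -0.25 or less, with translation and respiration at the top and yolk, cilia, P450 and matrix at the bottom.

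On the other side, the lists with the highest medians belong to the making of ribosomes and proteins. Nucleolar and ribosome biogenesis proteins, which process ribosomal RNA and assemble subunits, were 3 higher and 0 lower of 8, with a median of 0.71. They summed to 238 RPM at arousal, against 121 at deep aestivation (397 in non-aestivation), 1.97-fold higher (1.56 to 2.50). Nucleolar protein 5A, the core protein of box C/D small nucleolar particles, had 107 reads at arousal, against 38 at deep aestivation, and 208 in non-aestivation, 2.59-fold higher (1.78 to 3.86). Both isotigs of nucleolar protein family A member 2, the NHP2 protein of box H/ACA particles, were higher, with 8 and 14 reads at arousal, against 2 and 3 at deep aestivation. The term ribosome biogenesis in the deposited gene ontology had the highest median of the 96 Process terms with 15 or more isotigs, at 0.63 over 17, with 5 higher and 0 lower. Its named higher members, chosen after their values were seen, were SDA1 domain containing 1 (35 reads at arousal, against 13 at deep aestivation), FRG1-like (20 against 5) and the SBDS ribosome maturation protein (14 against 5).

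Cytoplasmic ribosomal proteins moved together by a small amount, which a count of calls does not show. Of 62 isotigs 4 were higher and 1 was lower, shares under the background in both directions, yet 59 lay above 0 and the middle 50% ran from 0.37 to 0.63 around a median of 0.50. Their sum was 66561 RPM at arousal, against 47836 at deep aestivation (55287 in non-aestivation), 1.39-fold higher (1.37 to 1.41). The most abundant were close to that ratio: 40S protein S20 had 2429 reads at arousal, against 1413 at deep aestivation, 60S L13 had 3695 against 2480, and L31 had 2170 against 1334. L34 (isotig27121) had 517 reads at arousal, against 206 at deep aestivation, and was 2.31-fold higher (1.96 to 2.73). The other higher members, S5-like, L23a and L8, had 120, 72 and 28 reads at arousal, against 44, 32 and 7 at deep aestivation, over at most 25.87% of their isotigs. The lower isotig of L10a had 3 reads against 21, over 13.79% of it at arousal and 6.77% at deep aestivation. L10e/P0, given below with a larger change than any of these, is not in the list. Only uniquely placed reads were counted, so single isotigs of such families are uncertain. The 17 mitochondrial ribosomal protein isotigs had a median of 0.07, with 1 higher and 2 lower.

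Aminoacyl-tRNA synthetases, which load amino acids on their tRNAs, had the highest median of the 54 lists with 5 or more members, at 0.74, with 5 higher and 0 lower of 12, 3 of them with an interval that left out 1. Among the 10 isotigs covered over 30% or more it was 0.44, under the nucleolar list at 0.69 and the fibrinogen-related list at 0.76. The higher members were rare at deep aestivation. The interacting multifunctional protein 1 of the synthetase complex had 18 reads at arousal, against 5 at deep aestivation (21 in non-aestivation). Seryl-tRNA synthetase 2 had 16 against 4, leucyl-tRNA synthetase 14 against 5, and the phenylalanyl-tRNA synthetase beta chain 13 against 2 (38 in non-aestivation). The better covered glycyl-tRNA synthetase had 144 reads at arousal and 103 at deep aestivation, within 2-fold, and the list sum was 1.34-fold higher (1.13 to 1.59). Translation initiation factors, which bring ribosomes to mRNA, were 3 higher and 0 lower of 20, 18 above 0, with a median of 0.37. Their summed reads did not follow, at 2336 RPM at arousal and 2384 at deep aestivation (3605 in non-aestivation). PolyA-binding protein, the most abundant isotig of the list, had 1322 reads at arousal and 1462 at deep aestivation. Subunit 8 of initiation factor 3 had 74 reads over 3 isotigs at arousal, against 27 at deep aestivation, and was 2.52-fold higher in sum (1.61 to 4.08).

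Proteins that process and export RNA included both the most abundant named transcript called higher at 2-fold and several called lower. Heterogeneous nuclear ribonucleoprotein A/B had 2410 reads at arousal, against 672 at deep aestivation (1461 in non-aestivation). Among 35 splicing and hnRNP isotigs 3 were higher and 3 were lower, shares near the background in both directions, with a median of 0.33. The small nuclear ribonucleoproteins A and E, parts of the spliceosome, had 78 and 65 reads at arousal, against 27 and 21 at deep aestivation, 2.66-fold (1.70 to 4.29) and 2.85-fold (1.72 to 4.91) higher. Splicing factor arginine/serine-rich 4 (isotig14146) had 93 reads at arousal, against 236 at deep aestivation (155 in non-aestivation), and was 2.75-fold lower (2.16 to 3.54). The helicase DHX15, which takes spliceosomes apart, had 17 reads against 36. RNA helicases and RNA-binding proteins counted 6 higher and 2 lower of 35. Nuclear RNA helicase Bat1, an mRNA export factor, had 339 reads at arousal, against 141 at deep aestivation (417 in non-aestivation), and was 2.21-fold higher (1.81 to 2.72). Y-box factor, an abundant mRNA-binding protein, had 1512 reads at arousal and 1024 at deep aestivation.

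**Figure D4:**
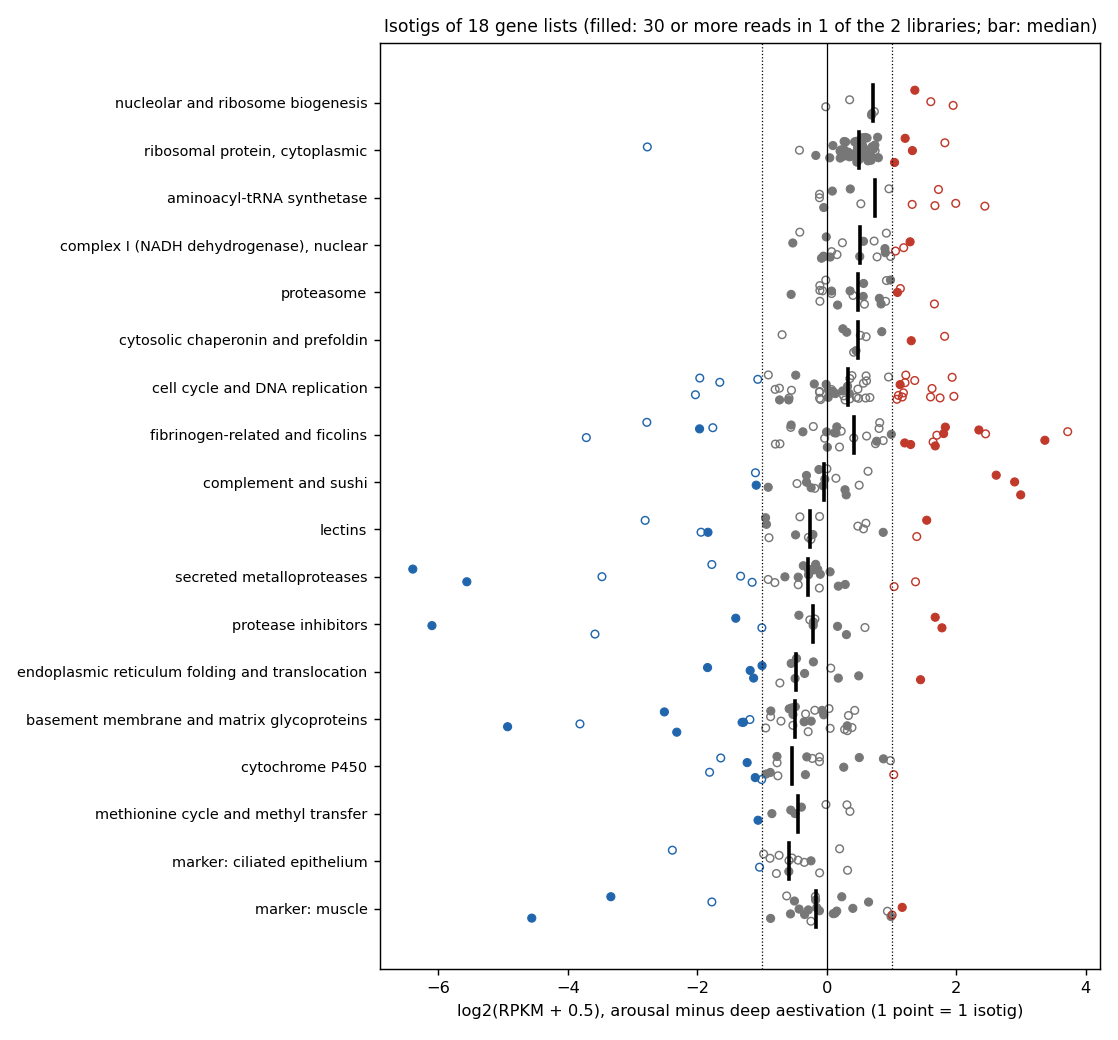
Differences in log2(RPKM + 0.5), arousal minus deep aestivation, of every isotig of 18 gene lists (horizontal), 1 point an isotig, filled where 1 of the libraries had 30 or more reads, with the list median as a bar. Ribosomal proteins form a narrow cluster between 0 and 1, whereas fibrinogen-related proteins, protease inhibitors and metalloproteases spread on both sides of 0.

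The respiratory chain had medians above 0 in 4 of its complexes. Complex I, which takes electrons from NADH, was 3 higher and 0 lower of 21, with a median of 0.51. Among the 13 isotigs of complex I covered over 30% or more none was called and the median was 0.24, and among those with 100 or more reads over the 3 libraries it was 0.02. Complex IV, which reduces oxygen, had no call among 5 and a median of 0.45, complex III none among 3 and 0.20, and ATP synthase had 2 higher and 1 lower of 14 and a median of 0.48. In sums complex I was 1.11-fold (1.03 to 1.21), complex IV 1.29-fold (1.19 to 1.40) and ATP synthase 1.40-fold (1.31 to 1.49) higher. The alpha and beta subunits of ATP synthase, its catalytic core, had 796 and 765 reads at arousal, against 528 and 506 at deep aestivation, and 1378 and 1395 in non-aestivation. All 3 isotigs of complex II lay below 0, with 122 reads in sum at arousal, against 137 at deep aestivation. The ADP/ATP carrier that serves the synthase, solute carrier family 25 member 4, had 1783 reads at arousal, against 1058 at deep aestivation, 1.55-fold higher (1.44 to 1.68) and within 2-fold. Of the mitochondrially encoded subunits, ATP synthase subunit 6 had 4603 reads at arousal and 3278 at deep aestivation, and cytochrome c oxidase subunit 1 had 7113 and 6802.

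Fuel pathways that feed the chain changed little. Of 15 isotigs of the tricarboxylic acid cycle 1 was higher and 1 was lower, with a median of 0.24, and of 10 in glycolysis and gluconeogenesis 1 was higher, with a median of 0.31. The higher ones were isocitrate dehydrogenase (isotig13396), with 47 reads against 21, close to the 2-fold line (2.06-fold, 1.21 to 3.63), and gamma-enolase, with 25 reads against 4. Fructose-bisphosphate aldolase, the most abundant, had 700 reads at arousal and 661 at deep aestivation. Among 10 isotigs of fatty acid oxidation 1 was higher, acyl-CoA dehydrogenase member 9 at 18 reads against 6, and the median was 0.00039. For hypoxia-inducible factor 1 alpha, the oxygen-sensitive regulator, 2 isotigs had 103 and 129 reads at arousal, 137 and 145 at deep aestivation, and 280 and 306 in non-aestivation.

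The proteasome and the cytosolic chaperonin had medians above 0, and the ubiquitin enzymes given above had a median of -0.16. Proteasome subunits, which degrade tagged proteins, were 3 higher and 0 lower of 22, 1 of them with an interval that left out 1, with a median of 0.48 and a sum 1.38-fold higher (1.25 to 1.53). Subunit 13 of the regulatory particle had 63 reads at arousal, against 27 at deep aestivation (85 in non-aestivation). The chaperonin CCT and its helper prefoldin, which fold actin and tubulin, were 2 higher and 0 lower of 10, with a median of 0.48 and a sum 1.51-fold higher (1.27 to 1.80). CCT subunit theta (isotig04136) had 76 reads at arousal, against 28 at deep aestivation (126 in non-aestivation), and was 2.50-fold higher (1.602 to 4.01). A second isotig of that name (isotig18284) had 35 reads at arousal and 26 at deep aestivation, within 2-fold. Heat shock proteins differed from these: 3 rare members of 24 were higher, and the median was 0.06. The sum was 1.18-fold lower (1.10 to 1.26), and the list holds 2 abundant chaperones of the endoplasmic reticulum, gp96, given above, and heat shock 70kDa protein 5, with 350 reads at arousal and 400 at deep aestivation. Heat shock cognate 70 (isotig07465) had 168 reads at arousal and 203 at deep aestivation, under its 417 in non-aestivation, and a second isotig (isotig28263) had 101 and 87 (221 in non-aestivation).

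Several isotigs for DNA replication were higher, all of them rare. In the mixed list of cell cycle and DNA replication 13 of 53 isotigs were higher and 4 were lower, with a median of 0.32 and a sum ratio of 1.11 (1.02 to 1.22). Isotigs for parts of the replication helicase, MCM2, Mcm6 and MCM7, had 23, 44 and 15 reads at arousal, against 5, 18 and 6 at deep aestivation, and 42, 90 and 29 in non-aestivation. Proliferating cell nuclear antigen (isotig08755) and its associated factor (isotig20826) had 22 and 20 reads at arousal, against 9 and 7 at deep aestivation, and 36 and 43 in non-aestivation. Of ribonucleotide reductase, which makes deoxyribonucleotides, the large subunit had 8 reads at arousal, against 3 at deep aestivation, and 1 isotig of the beta subunit (isotig07858) had 19 against 8, while another (isotig13372) had 17 against 24. Of the 13 higher isotigs 6 had an interval that left out 1, among them Mcm6 (2.25-fold, 1.27 to 4.14) and MCM2 (4.24-fold, 1.58 to 14.3). Among the 4 lower isotigs were kinases that drive division: cyclin dependent kinase 2 had 3 reads at arousal, against 10 at deep aestivation, and 52 in non-aestivation, and polo-like kinase 8 against 16 (29 in non-aestivation), both with intervals that include 1. Chromatin proteins had 7 higher and 0 lower of 46, with a median of 0.24, and 2 of the 7 are isotigs of non-histone chromosome protein 2, a nucleolar protein in yeast. Late histone H1 had 17 reads at arousal, against 4 at deep aestivation, and those 2 isotigs had 33 and 44 reads, against 13 and 11. High mobility group 1 protein, an abundant DNA-bending protein, had 1882 reads at arousal and 932 at deep aestivation, 1.86-fold higher (1.72 to 2.01).

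Immune recognition proteins held members called in both directions. Fibrinogen-related proteins and ficolins, which bind sugars on microbes and foreign surfaces, were 11 higher and 4 lower of 37, more often higher than the 8.06% over all isotigs and lower about as often as the 8.93%, with a median of 0.41. The 11 isotigs of fibrinogen-like protein A had 734 reads at arousal, against 289 at deep aestivation (841 in non-aestivation), 2.34-fold higher in sum (2.04 to 2.69), with 5 isotigs higher and none lower. The 4 isotigs of fibrinogen C domain-containing protein 1 had 91 reads at arousal, against 19 at deep aestivation, and 301 in non-aestivation, 4.41-fold higher (2.67 to 7.66), with 3 higher. Beside the lower angiopoietin-like isotig given above, angiopoietin-like 7 had 1 read at arousal, against 10 at deep aestivation, and an isotig named fibrinogen-like protein had 7 against 23. The abundant angiopoietin-like 1 precursor had 439 reads at arousal and 523 at deep aestivation.

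Complement and lectin isotigs were also called in both directions, over a background of 8.06% higher and 8.93% lower. In lists this small their counts differ from that background by few isotigs. Of 20 complement and sushi isotigs 3 were higher and 2 were lower, with a median of -0.05. Complement component C3, the central protein of the pathway and the most abundant here, had 1582 reads at arousal and 1813 at deep aestivation. Factor B, the protease that pairs with C3, had 237 reads over 4 isotigs at arousal, against 123 at deep aestivation, 1.78-fold higher in sum (1.422 to 2.23), but the gain lay in 1 isotig (isotig00440) with 142 reads against 20, covered over 14.99% and 7.63% of its length. The 2 isotigs named factor B-2 were lower, with 15 and 8 reads at arousal, against 30 and 16 at deep aestivation. CUB and sushi domain-containing protein 3 (isotig25187) had 261 reads at arousal, against 30 at deep aestivation (41 in non-aestivation). Lectins, sugar-binding proteins, were 2 higher and 3 lower of 18, with a median of -0.27: galectin 2 had 69 reads at arousal, against 21 at deep aestivation, and C-type lectin (isotig10930) had 11 against 37. Scavenger receptors had 1 higher and 1 lower of 18.

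Single proteases that act in lysosomes or outside the cell were higher, in lists whose counts stood near the background. Cathepsin L2 rose to 156 reads at arousal, against 17 at deep aestivation (26 in non-aestivation), and cathepsin D (isotig06265) to 217, against 92 at deep aestivation (247 in non-aestivation). They were the 2 higher of 20 isotigs of lysosomal proteases and autophagy. Cathepsin B had 1108 reads at arousal and 785 at deep aestivation, and the legumain-like isotig had 1258 and 954. A trypsin-like serine protease (isotig13602) had 4306 reads at arousal, against 2433 at deep aestivation, and 1808 in non-aestivation, 1.63-fold higher (1.55 to 1.71), which is within 2-fold but 1 of the 10 largest gains in share of reads. Matriptase-like (isotig25725), a membrane serine protease of epithelia, had 599 reads at arousal, against 254 at deep aestivation, and was 2.17-fold higher (1.87 to 2.53). Pregnancy-associated plasma protein-A (isotig13409), which in vertebrates cleaves the binding proteins of insulin-like growth factors, had 175 reads at arousal, against 69 at deep aestivation, and 31 in non-aestivation, 2.34-fold higher (1.76 to 3.13). Secreted phospholipase A2 of group IB (isotig17458), a digestive enzyme in vertebrates, had 103 reads at arousal, against 45 at deep aestivation (41 in non-aestivation).

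Contractile and cytoskeletal genes held single isotigs that changed in a balanced list. Of 37 isotigs of the actin cytoskeleton 2 were higher and 3 were lower, with a sum ratio of 1.001 (0.97 to 1.03). Actin isotig17429 had 421 reads at arousal, against 127 at deep aestivation, while actin isotig02881 had 1403 and 1350. Talin, which links integrins to actin, had 133 reads over 3 isotigs at arousal, against 203 at deep aestivation, 1.66-fold lower (1.32 to 2.08). Among muscle markers the titin N2-A isotig01194 had 18 reads at arousal, against 174 at deep aestivation (127 in non-aestivation), and myosin light chain 1 (isotig02278) had 1 against 32 (4 in non-aestivation). Another titin N2-A isotig (isotig13925) went the other way, with a log2 difference of 0.93, which passes 2-fold with a pseudocount of 0.1. Isotigs named connectin/titin also went up, with 110 reads over 3 at arousal, against 50 at deep aestivation, 2.03-fold higher (1.44 to 2.89). Smooth muscle myosin light chain kinase (isotig13077), which starts smooth muscle contraction, had 885 reads at arousal, 1155 at deep aestivation and 198 in non-aestivation. Calmodulin 2 (isotig14914), the calcium sensor, had 3082 reads at arousal, against 1602 at deep aestivation (1905 in non-aestivation), 1.77-fold higher (1.67 to 1.88). Actophorin (isotig13239), an actin-severing protein, had 4066 against 2485, 1.51-fold higher (1.43 to 1.59).

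Ion and solute transport, a main task of the organ, was close to even. Of 34 ion pumps and channels 1 was higher and 4 were lower, and of 71 solute carriers 4 were higher and 4 were lower, with medians of -0.12 and -0.07. The alpha subunit of the sodium pump (isotig18436) had 470 reads at arousal and 451 at deep aestivation, under its 807 in non-aestivation, and the V-type proton pump subunit (isotig13323) had 1038 and 710. The lower channels were rare, with calcium-activated chloride channel 1 at 5 reads against 21. Sodium phosphate carrier 2b of solute carrier family 34 had 36 reads at arousal, against 85 at deep aestivation (90 in non-aestivation), and was 2.56-fold lower (1.72 to 3.90). The beta-3-like subunit of the neuronal acetylcholine receptor (isotig05318) had 267 reads at arousal, against 108 at deep aestivation (227 in non-aestivation), over 25.51% and 25.04% of the isotig. Vesicle traffic proteins had 4 higher and 5 lower of 66, and antioxidant and glutathione enzymes 3 higher and 1 lower of 34. The calls named for glutathione S-transferases were split: an isotig of the alpha class (isotig08778) had 24 reads at arousal, against 3 at deep aestivation, and theta-1 (isotig17656) had 12 against 27. The other alpha class isotigs (isotig08777 and isotig17015) had 163 and 10 reads at arousal, against 114 and 11 at deep aestivation, within 2-fold. Catalase had 323 reads at arousal and 455 at deep aestivation.

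Sequences of transposable elements were among the changed transcripts in both directions, with 6 higher and 4 lower of 27. Both shares were above the 8.06% and 8.93% over all isotigs. Endonuclease-reverse transcriptase (isotig15346) had 110 reads at arousal, against 38 at deep aestivation (106 in non-aestivation), 2.67-fold higher (1.83 to 3.96), and an isotig named reverse transcriptase (isotig14650) had 93 against 39. The retr-1-like isotig (isotig15525) had 72 reads at arousal, against 140 at deep aestivation, 2.11-fold lower (1.58 to 2.84).

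**Figure D5:**
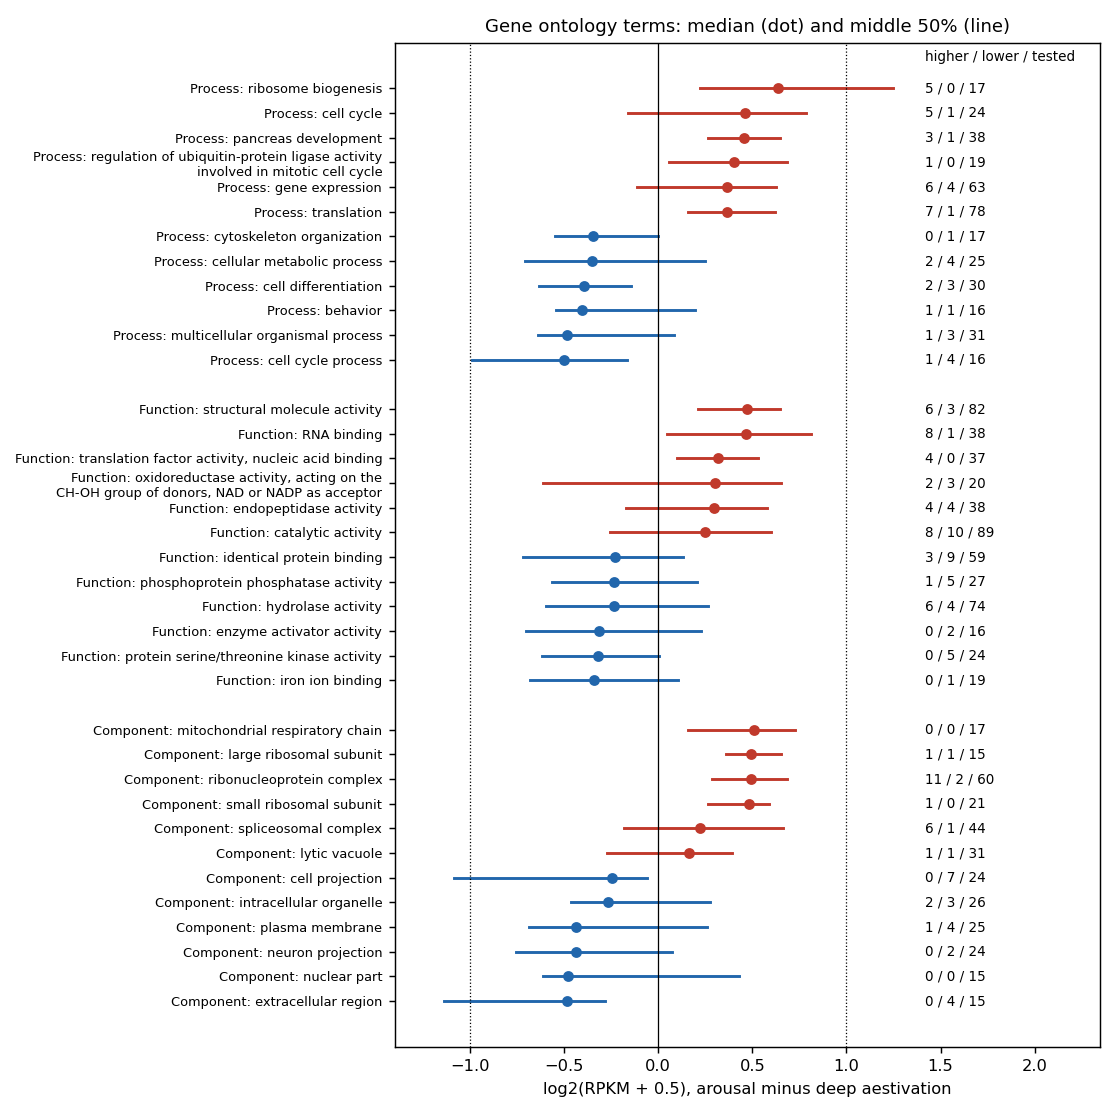
Median (dot) and middle 50% (line) of the differences in log2(RPKM + 0.5), arousal minus deep aestivation, for the 6 highest and 6 lowest gene ontology terms with 15 or more isotigs in each of Process, Function and Component, with the number higher, lower and tested. Terms of ribosomes, RNA and respiration lie at the high end and extracellular region, plasma membrane and cell projection at the low end of Component.

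The gene ontology terms that the authors deposited gave another grouping of the same isotigs, with 202 terms of 15 or more isotigs, of which 96 were Process, 50 Function and 56 Component terms. In Component the highest median was that of the mitochondrial respiratory chain, at 0.51 over 17 isotigs with 14 above 0 and no call, followed by the large ribosomal subunit at 0.50 and the ribonucleoprotein complex at 0.49. The lowest was extracellular region, at -0.49 over 15 isotigs, with 4 lower, 0 higher and 3 above 0. Its lower members were hemicentin-1, TIMP and angiotensin converting enzyme, given above, and acetylcholinesterase precursor, with 4 reads at arousal, against 12 at deep aestivation. Cell projection had 7 lower and 0 higher of 24, with a median of -0.25, and held 2 cubilin isotigs (isotig25069 and isotig14562) and outer dense fiber of sperm tails 2 (4 reads against 10). Plasma membrane had 4 lower and 1 higher of 25, with a median of -0.43.

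In Function, structural molecule activity (0.47 over 82 isotigs, 71 above 0) and RNA binding (0.47 over 38, with 8 higher and 1 lower) had the highest medians. The lowest were iron ion binding at -0.34 and protein serine/threonine kinase activity at -0.32, the second with 5 lower and 0 higher of 24. Phosphoprotein phosphatase activity had 5 lower and 1 higher of 27, among them myotubularin-related protein 2 (isotig04298), a lipid phosphatase, with 3 reads at arousal, against 18 at deep aestivation. In Process a pair of terms with nearly the same name lay at opposite ends. Cell cycle process had the lowest median, at -0.50 over 16 isotigs with 4 lower and 1 higher, and cell cycle was second from the top, at 0.46 over 24 with 5 higher and 1 lower. Their members differ: the most abundant of the first was a tubulin beta chain (817 reads at arousal, 776 at deep aestivation), and of the second ribosomal proteins L13, L7 and S7. The term pancreas development, close behind at 0.46 over 38 isotigs, was likewise led by ribosomal proteins. The term cellular metabolic process had a median of -0.35 and held a guanylate cyclase (isotig13105) with 57 reads at arousal, against 3 at deep aestivation, and 296 in non-aestivation (17.5-fold higher, 5.69 to 87.4), chosen after its values were seen.

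Isotigs that share a protein name did not always move together. Of 446 names with 2 or more isotigs, 12 had isotigs called in opposite directions. Ficolin 1, a microbe-binding lectin, had 1031 reads over 14 isotigs at arousal, against 783 at deep aestivation, with 3 higher and 1 lower: isotig06561 had 38 reads against 3 (11.7-fold higher, 3.70 to 59.1), and isotig03205 had 1 against 17. Leucine-rich repeat-containing protein 15 had isotig02349 higher, at 127 reads against 55, and isotig02348 lower, at 250 against 505, each over at most 16.14% of its length. Protein kinase C delta had isotig03798 higher (10 reads against 3) and isotig03797 lower (6 against 19), while the abundant isotig03795 had 373 reads at arousal and 255 at deep aestivation. Of 230 called isotigs whose name was shared by another isotig, 77 had a name sum that also passed 2-fold in the same direction. A call on 1 isotig is therefore a statement on that transcript and not on the gene. L10e/P0 (isotig10296), at 161 reads against 0 and at least 49.4-fold higher by the floor of 3 reads, was covered over 19.96% of its length.

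Of the isotigs compared, 5210 had no protein match, and they carried 50.8% of all reads at arousal, against 46.3% at deep aestivation (38.4% in non-aestivation). The 3 most abundant (isotig22175, isotig24195 and isotig10678) alone held 15.9% of reads at arousal, against 12.7% at deep aestivation, and 9.95% in non-aestivation. Among unmatched isotigs 8.52% were higher and 8.08% lower, and among matched ones 7.63% and 9.71%. In share of reads the gains summed to 17.6 percentage points and the losses to 17.5, of which major yolk protein 1 made up 6.63 points of loss. Apolipoprotein B came next with a loss of 0.438 points. The unmatched isotig10156 had 221 reads at arousal, against 2515 at deep aestivation, and 57 in non-aestivation, 12.4-fold lower (10.8 to 14.2). Isotig21480 had 284 reads at arousal, against 1072 at deep aestivation (405 in non-aestivation), and isotig26827 had 1923 against 3787 (633 in non-aestivation). Isotig13652, matched to a hypothetical protein of amphioxus, had 9 reads at arousal, against 2069 at deep aestivation, and 157 in non-aestivation, 249.5-fold lower (131 to 547), with 97.66% of its length covered at deep aestivation. Among unmatched isotigs called higher at 2-fold the most abundant was isotig06962, with 2249 reads at arousal, against 488 at deep aestivation, and 1279 in non-aestivation, 4.25-fold higher (3.85 to 4.69). A rarer one, isotig09137, chosen after its values were seen, had 238 reads at arousal, against 43 at deep aestivation, and 7 in non-aestivation, 5.10-fold higher (3.67 to 7.23).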

How the data were processed

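Libraries of arousal, deep aestivation and non-aestivation (1 each) were taken by their labelled stage. The authors deposited 1 table a library, which holds, per the file headers, the count of uniquely mapped reads on each isotig, its RPKM and the percent of its length covered by reads, with protein match names and gene ontology terms. Base calling used CASAVA 1.5, per the submitters' processing notes; the aligner, the mapping settings and the strand handling are not given in the sources used here. Fragments of bead-enriched mRNA were copied from random primers, per the labels' protocols, so counts grow with isotig length.

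Isotigs missing from a table were set to 0, and those with 20 or more reads over the 3 libraries were kept. Differences are of log2(RPKM + 0.5), from the deposited RPKM, and a call is a difference of 1 or more in size. The ratio of read rates (reads over the library total) has an exact conditional binomial 95% interval (Clopper-Pearson), which covers counting error only, since PCR copies were not told apart. With 1 library a stage no p-value was computed. Totals were 963002 (arousal), 887154 (deep aestivation) and 941322 (non-aestivation) reads, so 1 read on 1 kb was worth 1.04, 1.13 and 1.06 RPKM. Folds against 0 reads use a floor of 3 reads in that library.

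Lists were built from words in the protein names. They and the members were chosen with earlier results of these data known, and false matches were removed after seeing which names matched. Named are the 20 isotigs furthest in each direction with 100 reads and an informative name, the 10 largest gains and losses in share of reads, list members by abundance or change, shared names by summed ratio, names with opposite calls, and the 6 highest and 6 lowest gene ontology terms a column. Members named beside these, among them many rarer called isotigs of the lists, were chosen after their values were seen. Alternatives changed the read filter, the pseudocount (0.1 and 1), the library scaling, the unit (sums by name) and the call rule. The calculation was tested on simulated data. Python 3.11.15 with numpy 2.4.6, pandas 2.3.3, scipy 1.17.1 and matplotlib 3.10.9, and R 4.3.3 with edgeR 4.0.16 and DESeq2 1.42.0 (scaling factors only), were used.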

Additional observations from a re-analysis of the deposited data

How the results depend on the processing

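Counts of called isotigs depended on the read filter and on the call rule, and moved less with the scaling. With no read filter 3356 isotigs were higher and 3558 lower. With 20 reads over arousal and deep aestivation alone the counts were 558 and 590, with 100 reads over the 3 libraries 171 and 177, and with the interval added to the fold 530 and 602. Lists with a median of 0.25 or more numbered 8 of 43 with 100 reads over the 3 libraries, against 14 of 54. Those with a median of -0.25 or less numbered 9, against 12. These totals count lists with 5 or more members. The list of epidermal growth factor-like proteins had a median of 0.26 with no read filter, against -0.44, and the cause was not tested. A pseudocount of 0.1 gave 943 higher and 1029 lower, and of 1 gave 819 and 895. Scaling by TMM gave 893 and 966, and DESeq2 size factors 895 and 961. Totals without the most abundant isotigs gave 815 and 1107, of which 42.4% were higher, against 47.4%, with a shift of -0.06 for the median. Sums by name gave 795 and 873, and isotigs covered over 30% or more, an alternative chosen after seeing the data, 645 and 763. Complex I had a median of 0.24 and aminoacyl-tRNA synthetases of 0.44 among those. No named isotig changed direction, but those near 2-fold crossed it, among them isocitrate dehydrogenase, transcobalamin I, phosphoserine phosphatase and alpha macroglobulin. No paired analysis was possible because each stage has 1 library, and for the same reason no library could be left out. Depth limits the rare isotigs: leucyl-tRNA synthetase, at 14 reads at arousal against 5 at deep aestivation, was 2.58-fold higher with an interval of 0.878 to 9.15.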
